A study of Homo sapiens with 17 samples.

Results

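Genes of H/ACA small nucleolar RNAs and of small Cajal body RNAs were followed through the tables of regions deposited for 3 prostate cell lines. A region was taken where its overlap cell gave an exon of a gene whose symbol begins with SNORA or SCARNA, and the host gene was read from the same cell. This rule uses names and no measured value. It found 277 of 326944 regions, namely 90 of 77311 in 22Rv1, 94 of 110260 in LNCaP and 93 of 139373 in HPr1AR. They belong to 101 RNAs, 81 named SNORA and 20 named SCARNA, of which 93 were listed in all 3 lines, 5 in 2 lines and 3 in 1 line.

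Fragments were captured by an antibody to N6-methyladenosine (m6A), a modified base of RNA, or by unspecific immunoglobulin G (IgG), and sequenced, in wild-type, vehicle-treated cells that the labels describe as biological triplicates. 22Rv1 and LNCaP are prostate cancer lines, and HPr1AR cells, grown in keratinocyte serum-free medium, come from non-malignant prostate epithelium. The labels give 2 m6A and 3 IgG samples of 22Rv1, and 3 of each pull-down in LNCaP and HPr1AR. No deletion or other treatment is named for any group. The tables hold 1 fold and 1 p-value per region and no value per sample, so every interval and p-value below covers counting error only and none measures the spread between cultures.

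H/ACA RNAs fold into a pair of hairpins and direct pseudouridine synthesis by the protein DKC1, with NOP10, NHP2 and GAR1 as partners, on ribosomal RNA in the nucleolus. Their relatives in Cajal bodies, the SCARNAs, guide modification of spliceosomal RNAs, and some of them carry box C/D parts that guide methylation of the ribose. Most of these RNAs are cut out of introns of host genes, so their host transcript and the mature RNA share letters.

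The letters of 6 of the RNAs can be shown through microRNA hairpins that RefSeq (GRCh38.p14) places on the same strand over them; they are printed to show the terminal box that defines the family. Capitals mark the stretch shared with the H/ACA or Cajal body RNA. The hairpins lie at chr17:77089417-77089497 (plus strand), chr1:175968370-175968479 (minus), chr12:48654444-48654530 (minus), chrX:154768596-154768656 (plus), chr3:186786672-186786777 (plus) and chr9:92292458-92292547 (minus), in the order printed.
SCARNA16 and MIR6516: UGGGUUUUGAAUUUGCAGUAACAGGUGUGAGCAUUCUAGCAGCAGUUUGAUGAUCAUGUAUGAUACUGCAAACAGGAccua
SCARNA3 and MIR1843: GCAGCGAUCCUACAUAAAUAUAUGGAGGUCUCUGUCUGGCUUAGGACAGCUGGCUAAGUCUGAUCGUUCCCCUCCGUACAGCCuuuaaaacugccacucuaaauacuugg
SNORA2C and MIR1291: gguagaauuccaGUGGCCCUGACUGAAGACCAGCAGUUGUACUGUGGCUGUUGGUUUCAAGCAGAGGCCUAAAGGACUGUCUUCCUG
SNORA36A and MIR664B: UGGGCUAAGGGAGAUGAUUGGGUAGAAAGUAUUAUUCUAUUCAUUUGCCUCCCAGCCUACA
SNORA81 and MIR1248: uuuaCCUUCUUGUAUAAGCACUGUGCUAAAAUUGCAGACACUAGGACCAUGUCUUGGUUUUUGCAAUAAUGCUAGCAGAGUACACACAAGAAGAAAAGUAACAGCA
SNORA84 and MIR3651: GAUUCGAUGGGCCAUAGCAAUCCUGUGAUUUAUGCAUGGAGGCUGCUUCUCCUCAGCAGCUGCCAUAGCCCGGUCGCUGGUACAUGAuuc

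Of these hairpins, 4 cover the place 3 bases before the RNA's end in RefSeq, and all 4 hold ACA there, the box that gives H/ACA RNAs their name. The hairpin over SNORA36A stops at that ACA, so the last bases of the RNA are not in its printed letters. The letters GGAC, part of the motif at which m6A is usually placed, occur on the printed strand in the shared stretch of 3 hairpins (SCARNA3, SNORA2C and SNORA81). Of all 1562 hairpins in the RefSeq table, 27.3% hold GGAC. A match is a description of letters, and not a modified site.

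The comparison asked whether the m6A pull-down held more or fewer reads over these genes than the IgG pull-down did in that line. For each region, whole reads of the window that the table marks as representative were rebuilt from the deposited fold and p-value, set against the rebuilt depths, and given as a log2 read ratio. The pull-down depths that the tables imply were 3.30 M m6A and 4.82 M IgG reads in 22Rv1, 3.92 M and 8.87 M in LNCaP, and 5.13 M and 11.7 M in HPr1AR. A region was called higher or lower by a two-sided exact binomial test at an adjusted p of 0.05, adjusted over all regions of the line. The m6A pull-down is taken as the numerator from the table names, which the headers do not state.

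SNORA and SCARNA regions carried lower read ratios than the tables as a whole, and most of the lower calls came from regions that hold the small RNA and no exon of another gene. In 22Rv1, 20 of the 90 regions were lower and 16 higher, where 0.750% of all regions were lower and 54.3% higher. In LNCaP, 5 of 94 were lower and 20 higher, where 0.0998% of all regions were lower and 38.1% higher. In HPr1AR, 10 of 93 were lower and 23 higher, where 0.0911% of all regions were lower and 38.0% higher. The median log2 read ratio was -0.40, -0.15 and 0.02 over SNORA and SCARNA regions of 22Rv1, LNCaP and HPr1AR, against 2.08, 1.27 and 1.25 over all regions. SNORA and SCARNA regions made up 3.45% of all lower regions of 22Rv1, 4.55% of those of LNCaP and 7.87% of those of HPr1AR. In the authors' deposited table of each line the adjusted p was under 0.05 in 88, 90 and 92 of these regions of 22Rv1, LNCaP and HPr1AR, and in 99.3%, 95.4% and 96.5% of all regions. That p follows a fold in which the IgG logarithm is subtracted 2 times, so it is not used for direction here. Centring each line on its median region is a shift of 2.08, 1.27 and 1.25, and it moved the split. After centring, 66 SNORA and SCARNA regions were lower and 2 higher in 22Rv1, where 15.9% of all regions were lower and 15.6% higher. The centred counts were 55 lower and 5 higher in LNCaP, beside 7.95% and 21.2% of all regions, and 48 lower and 4 higher in HPr1AR, beside 7.62% and 21.2%.

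Regions fell into a pair of classes by what else they overlap. In 37 regions of 22Rv1, 37 of LNCaP and 36 of HPr1AR the small RNA was the only exon, mostly within an intron of its host. The other 53, 57 and 57 also took in an exon of another gene, on either strand. How many of these exons belong to the host was not counted. The regions without another exon had a median width of 140 bp in each line, and the RNAs themselves have a median length of 135 bp. Both ends of the region lay within 20 bp of the ends of the RNA in 22 of 35 such regions of 22Rv1, 23 of 34 of LNCaP and 23 of 33 of HPr1AR for which the RNA could be placed. A median of 91.3%, 97.6% and 98.5% of the RNA was covered. The representative window sat inside the RNA in 34, 31 and 30 of these regions, centred a median of 46.7%, 43.3% and 45.6% of the way from the 5′ end.

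In regions that hold the RNA alone, lower calls reached 15 of 37 in 22Rv1, 3 of 37 in LNCaP and 8 of 36 in HPr1AR. The median log2 read ratio there was -1.45, -0.76 and -0.88, and 34, 34 and 28 of the regions had a ratio below 0. The LNCaP count of 34 includes SNORA12, whose ratio there is only a bound of at least -1.73. Medians of m6A and IgG CPM (reads scaled by the rebuilt depth) were taken separately over the 37, 35 and 34 regions with rebuilt reads. They were 1.21 and 3.53 in 22Rv1, 1.27 and 2.59 in LNCaP, and 1.27 and 2.35 in HPr1AR. Regions whose reads are known only as a bound were left out of these medians. Only 1 region of 22Rv1 and 1 of HPr1AR in this class was higher, in both lines that of SCARNA17, and none was in LNCaP, where 2 regions were undetermined because their reads are known only as a bound. In 22Rv1 the lower regions held a median of 31 reads over both pull-downs and those not called 19, so a region that was not called is not shown to be equal between the pull-downs.

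**Figure D1:**
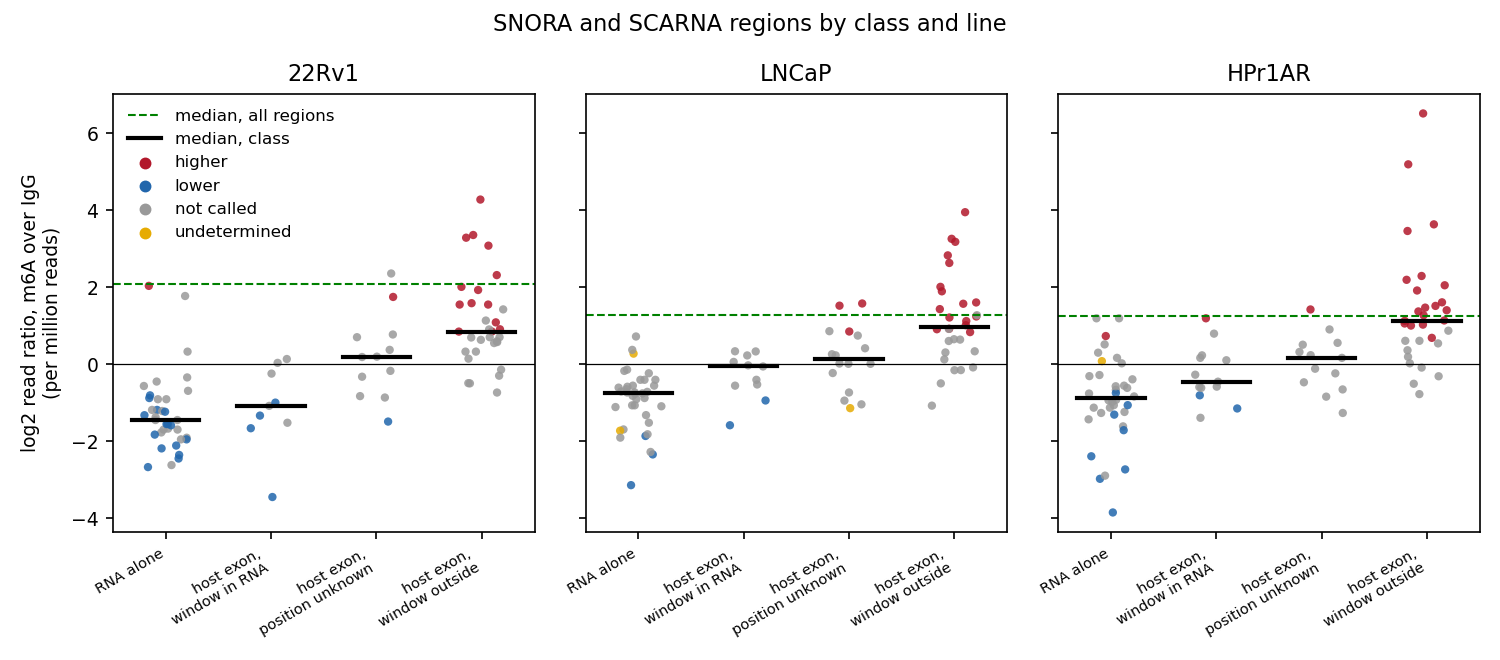
Log2 read ratio, m6A over IgG, of each SNORA or SCARNA region (points, coloured by call) in 22Rv1, LNCaP and HPr1AR, split by class. Black bars are class medians, and the dashed line is the median of all regions of the line. The RNA-alone medians of -1.45, -0.76 and -0.88 lie below 0. Regions marked host exon hold an exon of any other gene, and those with the window outside the RNA have medians above 0.

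Among the guides of large-subunit ribosomal RNA, SNORA74B, in an intron of the proton pump subunit gene ATP6V0E1, had 3 m6A and 28 IgG reads in 22Rv1, 12 and 46 in LNCaP, and 8 and 60 in HPr1AR. Its ratio was -2.68 in 22Rv1 (95% exact interval -5.04 to -0.98, exact binomial test with Benjamini-Hochberg adjusted p = 0.000917) and -1.72 in HPr1AR (-2.99 to -0.65, 0.00191). The ratio of -0.76 in LNCaP was not called. The related SNORA74A, in the SNHG4 and MATR3 locus, had 10 m6A and 43 IgG reads in 22Rv1, 32 and 85 in LNCaP, and 23 and 72 in HPr1AR. It was lower in 22Rv1 (ratio -1.56, -2.72 to -0.54, adjusted exact p = 0.00325). The ratios of -0.23 in LNCaP and -0.46 in HPr1AR, from regions that also held an exon of another gene, were not called. SNORA62, inside the ribosomal protein gene RPSA, had 7 m6A and 30 IgG reads in 22Rv1, 10 and 37 in LNCaP, and 11 and 37 in HPr1AR. It was lower in 22Rv1 (-1.55, -2.98 to -0.34, adjusted exact p = 0.0179) and not called in LNCaP (-0.71) or HPr1AR (-0.56).

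Of the guides of small-subunit ribosomal RNA, SNORA66, within the ribosomal protein gene RPL5, had 1 m6A and 16 IgG reads in 22Rv1, 5 and 34 in LNCaP, and 6 and 36 in HPr1AR. All 3 ratios were below 0. It was lower in 22Rv1 (-3.45, -8.84 to -0.77, adjusted exact p = 0.00814) and in LNCaP (-1.59, -3.30 to -0.23, adjusted exact p = 0.0464), while -1.39 in HPr1AR was not called. SNORA50A, in an intron of the deadenylase scaffold gene CNOT1, had 2 m6A and 15 IgG reads in 22Rv1, 1 and 20 in LNCaP, and 4 and 20 in HPr1AR. Its ratio was -2.36 in 22Rv1 (-5.53 to -0.26, adjusted exact p = 0.0402), -3.14 in LNCaP (-8.52 to -0.50, adjusted exact p = 0.0266) and -1.13, not called, in HPr1AR. SNORA46, another RNA of CNOT1 introns, had 4 and 11, 2 and 23, and 6 and 30 m6A and IgG reads in 22Rv1, LNCaP and HPr1AR, and was lower in LNCaP (-2.35, adjusted exact p = 0.041) and not called in the other lines. Outside that group, SNORA69, in the ribosomal protein gene RPL39, had 0 m6A reads beside 11 IgG reads in 22Rv1 and 17 in HPr1AR, and 2 beside 17 in LNCaP. Each count of 0 was replaced by a floor of 3 reads in that pull-down, which put the ratio at no more than -1.33 in 22Rv1 (adjusted exact p = 0.0137) and no more than -1.31 in HPr1AR (adjusted exact p = 0.0126), while -1.91 in LNCaP was not called.

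SNORA53, inside the mitochondrial phosphate carrier gene SLC25A3, was the RNA with a lower call in all 3 lines. It had 13 m6A and 48 IgG reads in 22Rv1, 17 and 74 in LNCaP, and 22 and 88 in HPr1AR, which is 3.94 and 9.96, 4.33 and 8.34, and 4.29 and 7.51 CPM. The ratio was -1.34 in 22Rv1 (-2.35 to -0.43, adjusted exact p = 0.0054), -0.94 in LNCaP (-1.80 to -0.17, adjusted exact p = 0.0389) and -0.81 in HPr1AR (-1.55 to -0.12, adjusted exact p = 0.0488). In the files' coordinates the RNA spans chr12:98993413-98993662, and the regions ran past its end into a stretch that the table also marks as an exon of another gene, with the representative window inside the RNA in each line. The LNCaP counts of SNORA53 are 1 of 7 pairs of whole numbers that give the deposited fold, and over these pairs the ratio runs from -0.94 to -0.61. The pair used has the lowest of these ratios. The call was not tried on the other pairs, so the lower call in all 3 lines is given for that pair only.

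Across lines, 26 RNAs were lower in at least 1 line and 8 in 2 or more. SNORA23, in the nuclear import gene IPO7, had 11 m6A and 51 IgG reads in 22Rv1, 21 and 70 in LNCaP, and 14 and 71 in HPr1AR. It was lower in 22Rv1 (-1.67, -2.76 to -0.71, adjusted exact p = 0.000618) and in HPr1AR (-1.15, -2.09 to -0.31, adjusted exact p = 0.0147), and -0.56 in LNCaP was not called. SNORA12, in an intron of CWF19L1, had 3 m6A and 17 IgG reads in 22Rv1 (-1.96, not called) and a bound of 4 and 30 in LNCaP, which left it undetermined; its 5 and 76 reads in HPr1AR gave the smallest adjusted p among the lower regions of that line (1e-06).

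Further RNAs with a lower call in 22Rv1 were SNORA80E of KHDC4 (6 m6A and 34 IgG reads, ratio -1.96), SNORA54 of NAP1L4 (3 and 20, -2.19), SNORA80A of URB1 (3 and 19, -2.12), SNORA14A of the cytochrome P450 reductase gene POR (2 and 16, -2.45), SNORA84 of IARS1 (5 and 22, -1.59) and SNORA71A of SNHG17 (9 and 31, -1.24). SNORA54, SNORA84 and SNORA71A did not keep that sign in every line. SNORA71A had 21 m6A and 47 IgG reads in LNCaP (0.02, not called) and 29 and 16 in HPr1AR (2.05, higher), both from regions shared with SNORA71C. SNORA54 had 10 m6A and 16 IgG reads in HPr1AR (0.51, not called), and SNORA84 had 24 and 33 in LNCaP (0.72) and 7 and 7 in HPr1AR (1.19), neither of them called. In LNCaP the other lower call was SNORA49 of EP400 (4 and 33, -1.87), which had 6 and 13 reads in 22Rv1 (-0.57) and 8 and 31 in HPr1AR (-0.76), not called. In HPr1AR it was SNORA58 of MRPL3 (2 and 24, -2.39), which had 2 and 8 reads in 22Rv1 (-1.45) and 0 and 12 in LNCaP (at most -0.82), not called. SNORA71A belongs to a family of close copies in SNHG17, as SNORA14A, SNORA17A and SNORA80E do elsewhere, and how reads were divided between copies is not given in the sources used here.

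Small Cajal body RNAs were represented by 17 regions in 22Rv1, 20 in LNCaP and 20 in HPr1AR, of which 6, 0 and 4 were lower and 3, 4 and 4 higher. Of all regions, 0.750%, 0.0998% and 0.0911% were lower and 54.3%, 38.1% and 38.0% higher. Without an exon of another gene there were 9, 11 and 11 SCARNA regions, of which 4, 0 and 4 were lower and 1, 0 and 1 higher. SCARNA5 and SCARNA6, guides of spliceosomal RNA that combine H/ACA and box C/D parts, lie in introns of the autophagy gene ATG16L1. SCARNA5 had 10 m6A and 52 IgG reads in 22Rv1, 26 and 65 in LNCaP, and 31 and 119 in HPr1AR, and was lower in 22Rv1 (-1.83, -2.97 to -0.84, adjusted exact p = 0.000202) and HPr1AR (-0.75, -1.37 to -0.17, adjusted exact p = 0.0261), with -0.14 in LNCaP. SCARNA6 had 4 m6A and 16 IgG reads in 22Rv1, 11 and 38 in LNCaP, and 18 and 86 in HPr1AR. It was lower in HPr1AR (-1.07, -1.89 to -0.32, adjusted exact p = 0.0104), and the ratios of -1.45 in 22Rv1 and -0.61 in LNCaP were not called. SCARNA10, of the same mixed type and within the condensin gene NCAPD2, had 26 and 76 reads in 22Rv1 (-1.0, adjusted exact p = 0.00472, lower), 44 and 85 in LNCaP (0.23, not called) and 33 and 113 in HPr1AR (-0.59, not called). SCARNA12, the remaining mixed-type RNA, in the prohibitin gene PHB2, was higher in 22Rv1 with 59 m6A and 48 IgG reads (0.84, adjusted exact p = 0.0078) from a window outside the RNA, and was not called in LNCaP (61 and 118, 0.23) or HPr1AR (51 and 104, 0.16).

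SCARNA2 and SCARNA17, guides of box C/D type, had no host gene on their strand, and they differed in direction. SCARNA2 had 26 m6A and 70 IgG reads in 22Rv1 and was lower there (-0.88, -1.59 to -0.21, adjusted exact p = 0.0169). Its reads in LNCaP and HPr1AR are known only as a bound, with ratios of at least 0.27 and 0.08, and both were undetermined. SCARNA17 had 56 m6A and 20 IgG reads in 22Rv1 (2.03, 1.27 to 2.85, adjusted exact p = 5.96e-08), although its ratio relative to the median region of that line was -0.05. Its bounds of 83 and 63 reads in LNCaP and 85 and 117 in HPr1AR gave ratios of at least 1.58 and 0.73, and it was called higher in all 3 lines. The place of its window relative to the RNA is unknown, and in LNCaP the region also held an exon of another gene.

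SCARNA7, a box C/D type RNA in KPNA4, was lower in 22Rv1 with 23 and 59 reads (-0.81, adjusted exact p = 0.0456), and was not called in LNCaP (21 and 79, -0.73) or HPr1AR (48 and 119, -0.12). SCARNA9, of the same type, in CEP295, had ratios of 0.03, 0.33 and 0.16 in 22Rv1, LNCaP and HPr1AR and was not called. SCARNA3, whose letters are printed above, had 0 m6A and 10 IgG reads in 22Rv1, 5 and 17 in LNCaP, and 1 and 18 in HPr1AR; it was lower in 22Rv1 (at most -1.19, adjusted exact p = 0.0217) and HPr1AR (-2.98, adjusted exact p = 0.0491). SCARNA4, in KHDC4, was lower in 22Rv1 (9 and 37, -1.49, adjusted exact p = 0.00899) with -0.74 in LNCaP (13 and 49) and -0.66 in HPr1AR (15 and 54). SCARNA18, in TMEM167A, was not listed in 22Rv1, had 4 and 17 reads in LNCaP (-0.91, not called), and with 1 and 33 reads in HPr1AR gave -3.85 (-9.20 to -1.28, adjusted exact p = 0.000582).

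In all 3 lines 28 RNAs were listed without an exon of another gene, and 21 of them had a ratio below 0 in every line. The 21 include SNORA12, whose LNCaP ratio is only a bound of at least -1.73, so its sign there is not known. Their medians were -1.50 in 22Rv1, -0.75 in LNCaP and -0.96 in HPr1AR, with ranges of -2.68 to 1.77, -3.14 to 0.72 and -2.98 to 1.19. The lowest of the 3 ratios was that of 22Rv1 in 17 RNAs, of LNCaP in 6 and of HPr1AR in 5, with counts of 0 set to the floor of 3 reads. SNORA69, SCARNA3 and SNORA58 have such a count of 0, so which line is lowest in them is not certain. SCARNA9L, in EIF1AX, had ratios above 0 in each line, 1.77 with 7 m6A and 3 IgG reads in 22Rv1, 0.37 with 4 and 7 in LNCaP and 1.19 with 9 and 9 in HPr1AR, none of them called.

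**Figure D2:**
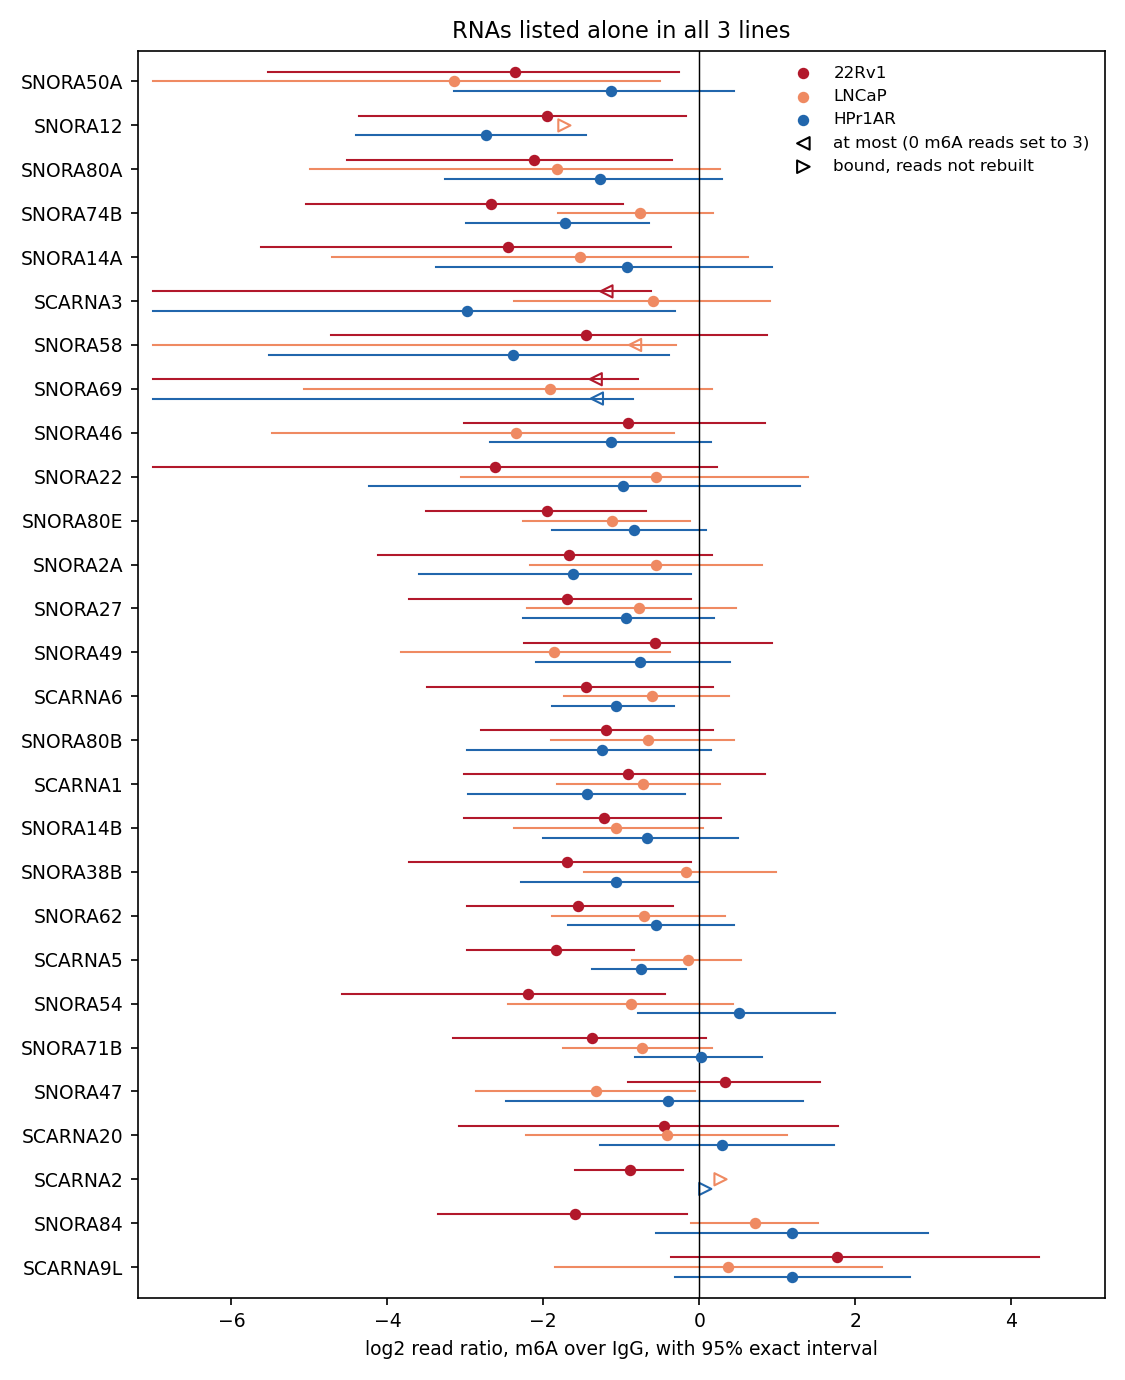
Log2 read ratio, m6A over IgG, of the 28 RNAs listed without an exon of another gene in all 3 lines, with 95% exact binomial intervals from read counts. Open triangles are bounds, and intervals are drawn to the edge of the axis where they run on. Of the 28, 21 RNAs lie below 0 in all 3 lines at once, counting SNORA12, whose LNCaP point is a bound of at least -1.73.

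Of the regions that also took in an exon of another gene, 15 of 53 in 22Rv1, 20 of 57 in LNCaP and 22 of 57 in HPr1AR were higher, and 5, 2 and 2 were lower. The higher shares are 28.3%, 35.1% and 38.6%, beside 54.3%, 38.1% and 38.0% of all regions, so they are below the share of all regions in 22Rv1 and near it in LNCaP and HPr1AR. The position of the representative window divided them, a split made after the values were seen. Where the window lay outside the RNA, 14 of 32 regions in 22Rv1, 17 of 30 in LNCaP and 20 of 31 in HPr1AR were higher, 0 were lower, and the medians were 0.85, 0.97 and 1.12. Where it lay inside the RNA, 0 of 9, 0 of 11 and 1 of 13 were higher, 4, 2 and 2 were lower, and the medians were -1.09, -0.06 and -0.46. The single higher one was SNORA67 in HPr1AR, in the SENP3-EIF4A1 locus, with 59 m6A and 59 IgG reads (1.19). Regions with the window outside were wide, with medians of 1435, 2810 and 2660 bp, so their windows were the ones marked among many more candidates, and the part of that choice in the ratio was not tested.

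**Figure D3:**
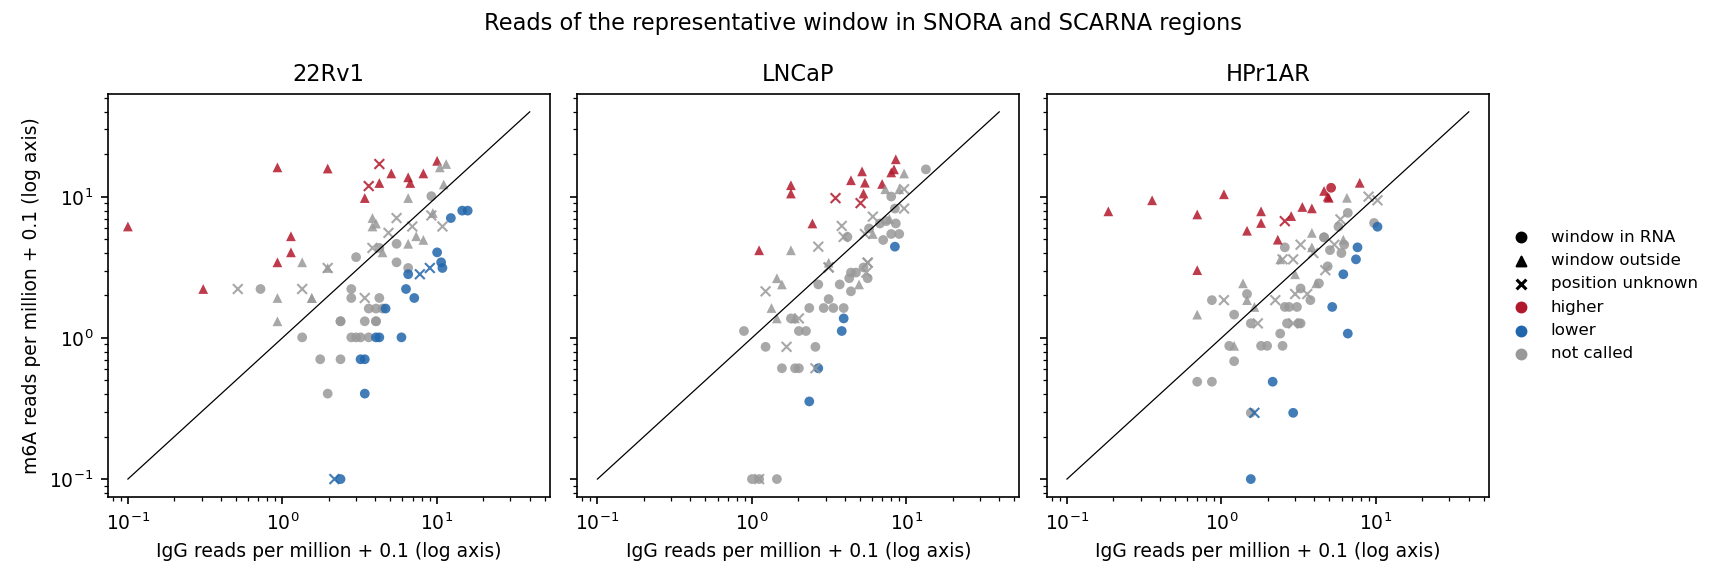
Reads of the representative window, scaled to depth as CPM, in the m6A pull-down (vertical) against the IgG pull-down (horizontal), both with 0.1 added and on log axes, for SNORA and SCARNA regions with rebuilt reads in 22Rv1, LNCaP and HPr1AR. Circles are windows inside the RNA and triangles windows outside it; lower calls (blue) are circles or crosses of unknown position, and higher calls (red) are mostly triangles.

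There were 11 RNAs with a higher call in all 3 lines, and all but SCARNA17 shared their region with an exon of another gene in each line. SNORA57, a small-subunit guide in CSKMT, had 53 m6A and 4 IgG reads in 22Rv1 (4.28, adjusted exact p = 2.9e-15), a bound of 75 and 11 in LNCaP (at least 3.95) and 48 and 3 in HPr1AR (5.19, 3.56 to 7.52, adjusted exact p = 4.45e-20). SNORA70, another small-subunit guide, in the ribosomal protein gene RPL10, had 20 m6A and 0 IgG reads in 22Rv1 (at least 3.28 against the floor of 3 reads, adjusted exact p = 1.59e-07), a bound of 76 and 18 in LNCaP (at least 3.26) and 40 and 1 in HPr1AR (6.51, 3.95 to 11.85). SNORA2C, in KANSL2 and printed above, had 52 and 9 reads in 22Rv1 (3.08), 41 and 15 in LNCaP (2.63) and 38 and 7 in HPr1AR (3.63). All 3 RNAs had the representative window outside the RNA in every line, so the reads are those of flanking sequence. SNORA2A, a relative in another KANSL2 intron, was listed alone and had 3 and 14 reads in 22Rv1 (-1.68), 6 and 20 in LNCaP (-0.56) and 4 and 28 in HPr1AR (-1.62), none called.

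The other RNAs higher in all 3 lines were SNORA63 with SNORA4 in 1 region of the translation factor gene EIF4A2 (1.55 in 22Rv1, 1.12 in LNCaP, at least 1.61 in HPr1AR), SNORA30 in SRCAP (1.58, 1.24, at least 1.51), SNORA31 in TPT1 (0.85, at least 1.89, 0.68), SNORA11 in MAGED2 (2.31, 1.01, 1.13), SCARNA21 in CHD3 (1.55, 1.57, 1.00) and SNORA5C in TBRG4 (1.75, 1.52, 1.42). Their windows lay outside the RNA in each line, except for SNORA5C, whose place is unknown. Relative to the median region of 22Rv1, the ratios there of SNORA63 with SNORA4, SNORA30, SCARNA21 and SNORA5C turn negative, to -0.53, -0.49, -0.53 and -0.33. Calls in fewer lines included SNORA50C, with no host on its strand (1.08 in 22Rv1, at least 3.18 in LNCaP, -0.28 and not called in HPr1AR), and SCARNA22 in the histone methyltransferase gene NSD2 (0.70 and not called in 22Rv1, 2.83 in LNCaP, 2.19 in HPr1AR). SNORA75 in the nucleolin gene NCL (0.63 and not called, at least 1.21, at least 1.03) and SNORA51 in NOP56 (0.90, 0.33 and not called, at least 1.47) were higher in 2 lines each. Relative to the median region of the line, SNORA50C turns negative in 22Rv1 (-0.99), and SNORA75 does in LNCaP (-0.06) and HPr1AR (-0.22). SNORA44, SNORA61 and SNORA16A share 1 region of SNHG12, which was higher in HPr1AR (33 and 20, 1.91) and not called in 22Rv1 (0.19) or LNCaP (0.74).

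Further RNAs had at least 30 reads in every line. SNORA64 and SNORA10, in 1 region of the ribosomal protein gene RPS2 with the window outside both, had 56 m6A and 55 IgG reads in 22Rv1 (0.57, not called), 61 and 73 in LNCaP (0.92, higher) and 56 and 53 in HPr1AR (1.27, higher). SCARNA11 of CHD4 (25 and 21 reads, 1.43) and SNORA48 of the SENP3-EIF4A1 locus (35 and 44, 0.85) were higher in LNCaP and not called in 22Rv1 or HPr1AR, and no pair of these regions passed the test between lines. SNORA3A and SNORA3B of RPL27A were higher in LNCaP, where they share a region (58 and 70, 0.91), and were not called in 22Rv1, where SNORA3A alone had 10 and 31 reads from a window inside it (-1.08), or in HPr1AR (23 and 62, -0.24). SNORA20 and SNORA29 of the chaperonin gene TCP1, SNORA21 of RPL23, SNORA24 of SNHG8, SNORA26 of DANCR, SNORA52 of RPLP2 and SNORA78 of SNHG9 were not called in any line, with ratios between -1.08 (SNORA29 in LNCaP) and 0.90 (SNORA20 in 22Rv1).

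For 17 RNAs the representative window lay inside the RNA in one line and outside it in another. In 14 of these every ratio from outside was above every ratio from inside, and in SNORA65, SNORA67 and SNORA72 it was not. SNORA37, in the methyl-CpG binding gene MBD2, had 3 m6A and 15 IgG reads inside in 22Rv1 (-1.77) and 6 and 29 inside in LNCaP (-1.10), and 51 and 56 outside in HPr1AR (1.06). SNORA6, in RPSA, had 13 and 5 outside in 22Rv1 (1.93) and 16 and 15 outside in LNCaP (1.27), and 16 and 56 inside in HPr1AR (-0.62). SNORA71A, the RNA called lower in one line and higher in another, had its window inside in 22Rv1 and outside in HPr1AR, where the region also held SNORA71C and gave 29 and 16 reads (2.05). Line and window position change together in these RNAs and cannot be told apart.

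**Figure D4:**
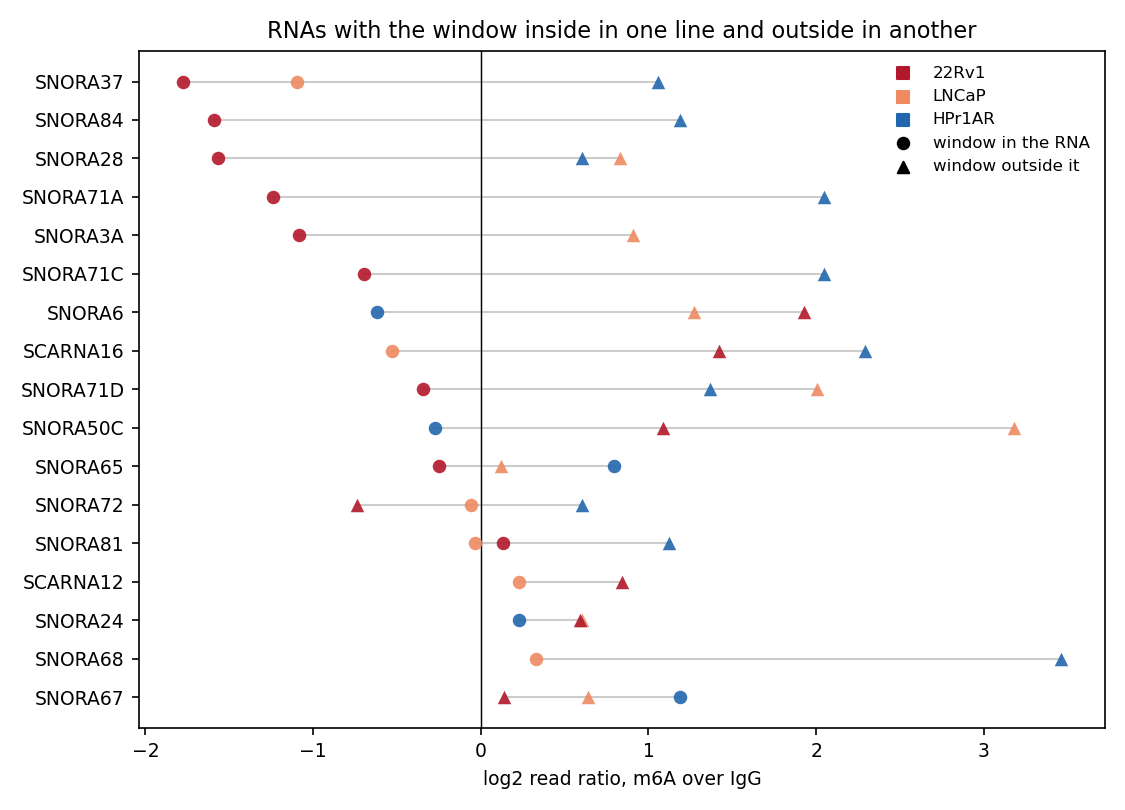
Log2 read ratio, m6A over IgG, of the 17 RNAs whose representative window lies inside the RNA in one line (circles) and outside it in another (triangles), coloured by line. Triangles lie to the right of circles in 14 of the 17; SNORA71A and SNORA71C share 1 region in HPr1AR.

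Ratio and region width moved together. No SNORA or SCARNA region of at most 300 bp was higher in any line, while 14 of 36 in 22Rv1, 4 of 34 in LNCaP and 8 of 32 in HPr1AR were lower by the exact binomial test. Above 300 bp, 16 of 54, 20 of 60 and 23 of 61 were higher and 6, 1 and 2 lower. Over all regions of any width, 54.3%, 38.1% and 38.0% were higher and 0.750%, 0.0998% and 0.0911% lower. The shares of all regions above 300 bp alone were not taken. Small regions of the whole tables also had lower ratios, with medians of 1.38, 0.44 and 0.61 over all regions of at most 300 bp, beside 2.08, 1.27 and 1.25 over all widths. With at most 300 bp and at least 20 reads, the median over all regions was 1.44 in 22Rv1, 0.51 in LNCaP and 0.84 in HPr1AR, and 1.45%, 1.30% and 1.02% of them were lower. Over SNORA and SCARNA regions of the same width and reads, the medians were -1.55, -0.99 and -1.07, and 9 of 19, 4 of 24 and 6 of 25 were lower.

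**Figure D5:**
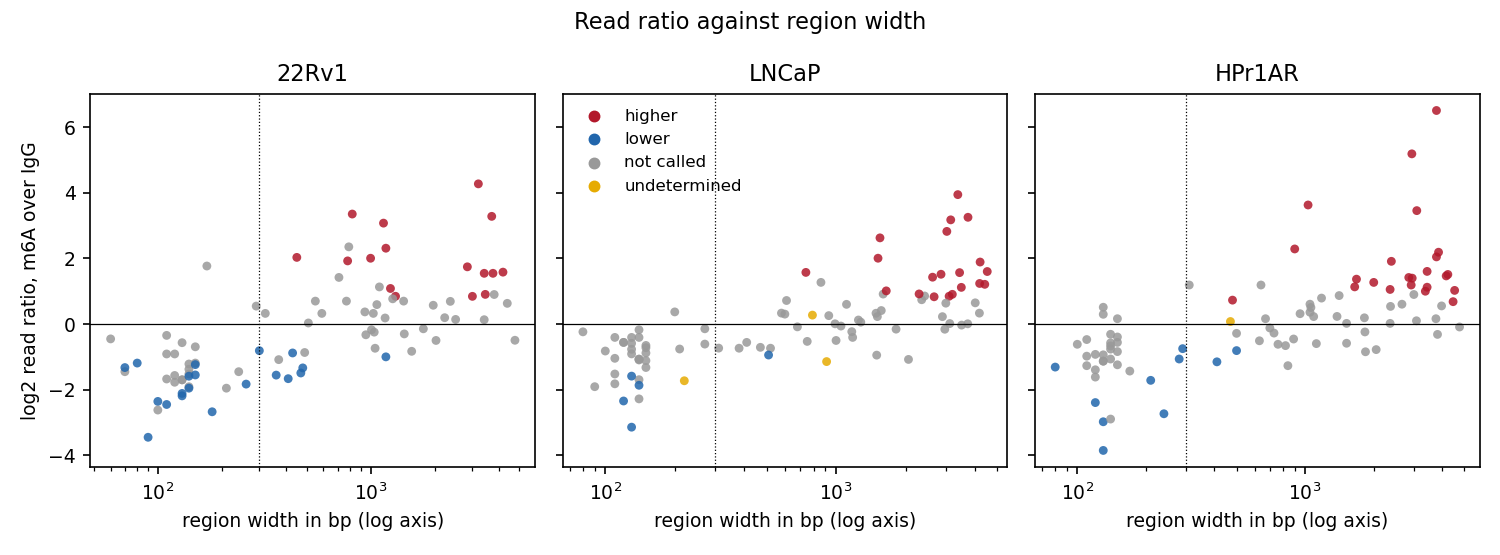
Log2 read ratio, m6A over IgG, against region width in bp on a log axis for each SNORA or SCARNA region of 22Rv1, LNCaP and HPr1AR, coloured by call, with a dotted line at 300 bp. No region left of that line was higher, and most lower calls are left of it.

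Box C/D small nucleolar RNAs, the methylation guides named SNORD, gave 55 regions in 22Rv1, 75 in LNCaP and 67 in HPr1AR outside the SNORA and SCARNA regions. Of those without another exon, 0 of 10, 0 of 12 and 0 of 13 were lower, with medians of -0.54, 0.08 and 0.05. They held fewer reads, a median of 17, 12 and 10 against 22, 31 and 34 in the SNORA and SCARNA regions of that class, and the difference between the families was not tested. Other exon regions of the same host genes had medians of 0.55, 0.61 and 0.84, and 30.6%, 28.2% and 33.7% of them were higher and 2.06%, 0.804% and 0.713% lower. The 79 hosts include 12 ribosomal protein genes named RPL or RPS, counted without RPLP2. Their SNORA regions had medians of -0.25, -0.03 and -0.40. SNORA52 of RPLP2, left out of these medians, had ratios of -0.83 in 22Rv1, 0.06 in LNCaP and 0.16 in HPr1AR. The hosts also include 9 SNHG genes, with medians of 0.19, 0.14 and 0.23.

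Genes of the H/ACA particle proteins were read through their own exon regions. Of DKC1, NOP10, NHP2 and GAR1, a region was higher in 3 of 4 in 22Rv1 and in 4 of 4 in LNCaP and HPr1AR, with 4 of 13, 7 of 15 and 7 of 14 regions higher and 0 lower. Over all regions with an exon, 49.8%, 42.9% and 43.6% were higher and 0.797%, 0.145% and 0.160% lower, so neither count of regions sets these genes apart. The same shares, which count regions and not genes, are the background of the lists that follow. DKC1 is also the host of SNORA36A and SNORA56. SNORA36A had 6 m6A and 7 IgG reads in 22Rv1 (0.32), 5 and 16 in LNCaP (-0.50) and 9 and 16 in HPr1AR (0.36), not called, and SNORA56 had 7 and 1 in 22Rv1 (3.35, higher), 5 and 12 in LNCaP (-0.09) and 37 and 32 in HPr1AR (1.40, higher). Assembly factors (NAF1, SHQ1, RUVBL1, RUVBL2, NUFIP1) had a higher region in 5 of 5 genes in each line and 0 lower. By region, 10 of 22 were higher in 22Rv1, 10 of 23 in LNCaP and 10 of 26 in HPr1AR. Of the 6 Cajal body genes, 4 had a higher region in each line, among them COIL, the coilin gene, and WRAP53, which carries SCARNAs and telomerase RNA to Cajal bodies, and 0 had a lower one. Their regions were higher in 8 of 16 cases in 22Rv1, 9 of 20 in LNCaP and 8 of 18 in HPr1AR. Telomerase RNA, TERC, which ends in an H/ACA domain, had 10 m6A and 43 IgG reads in 22Rv1 (-1.56, adjusted exact p = 0.00325, lower), 47 and 112 in LNCaP (-0.08, not called) and 30 and 83 in HPr1AR (-0.28, not called). Of the box C/D particle genes FBL, NOP56, NOP58 and SNU13, 3 had a higher region in 22Rv1 and 4 in LNCaP and HPr1AR, and 1 lower region was listed for NOP58 in 22Rv1. Higher regions of these genes numbered 5 of 19 in 22Rv1, 4 of 20 in LNCaP and 5 of 22 in HPr1AR.

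Whether a ratio differed between lines was asked of regions that overlap by at least 50% both ways, with a two-sided conditional exact test of the 4 read counts adjusted over all region pairs. Of 62 pairs of SNORA or SCARNA regions between 22Rv1 and HPr1AR, 0 differed, where 0.234% of all pairs did. Of these 62, 8 had an unadjusted exact p under 0.05, a larger share than the 3.84% of all pairs. Of 72 pairs between LNCaP and HPr1AR, 0 differed, where 0.253% of all pairs did. Of these 72, 6 had an unadjusted exact p under 0.05, a larger share than the 3.59% of all pairs. Of 64 pairs between 22Rv1 and LNCaP, 1 differed, where 0.235% of all pairs did. Of these 64, 4 had an unadjusted exact p under 0.05, a larger share than the 3.51% of all pairs. Whether these shares exceed those of all pairs beyond counting error was not tested. These tests of single pairs do not show the larger number of lower calls in 22Rv1 to be a difference between lines. Among pairs listed alone in both lines, 22Rv1 was lower in 15 of 23 against HPr1AR (median difference -0.55) and 19 of 24 against LNCaP (-0.62). LNCaP was lower in 15 of 28 against HPr1AR (-0.34). A shift over these pairs as a set was not tested. Over all SNORA and SCARNA pairs the median difference was -0.25 for 22Rv1 minus HPr1AR, -0.05 for LNCaP minus HPr1AR and -0.17 for 22Rv1 minus LNCaP. Over all pairs of the tables it was -0.16, -0.18 and -0.02.

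The pair that differed was that of SNORA15, a small nucleolar RNA in the chaperonin gene CCT6A, with 17 m6A and 35 IgG reads in 22Rv1 (-0.49) and 51 and 38 in LNCaP (1.60), a difference of -2.10 (conditional exact test, adjusted p = 0.0441). The representative windows were 2715 bp apart and both outside the RNA. The smallest adjusted p of the other comparisons was 0.0935, for SCARNA16 with 19 and 62 reads in LNCaP (-0.53) and 15 and 7 in HPr1AR (2.29), where the window was inside the RNA in LNCaP and outside it in HPr1AR. Among pairs of regions listed alone that overlap by at least 50% both ways, SNORA54 had the widest gap between 22Rv1 and HPr1AR, -2.70, with an unadjusted exact p of 0.0161 and an adjusted p of 0.94.

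The defining markers of the lines matched their labels in part. Of 7 luminal prostate genes, 7 were listed in 22Rv1 and in LNCaP and 3 in HPr1AR, and of 6 basal epithelial genes 1, 1 and 6 were listed. Coordinates are those of the files. The submitters' processing notes name hg38, but of 94 RNAs that could be placed 1 lay at its GRCh38 position, so the build is treated as not known.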

How the data were processed

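The tables compare m6A with IgG pull-downs of 22Rv1, LNCaP and HPr1AR cells, 17 samples in 6 groups from their titles. The authors deposited, per the file headers, 1 table per line with a log2 fold and a p-value per region, an adjusted p-value and the overlapping genes; the headers show windows merged into regions, while no header or label names an aligner, a counter or the test. The submitters' processing notes name hg38. The deposited log2 fold was modelled as log2 of the numerator reads minus 2 times log2 of the reference reads plus a constant, with fitted priors. Whole reads of the representative window were rebuilt from the deposited fold and p-value, searching up to 150 numerator reads, and were found for 95.6% of regions of 22Rv1, 98.5% of LNCaP and 100% of HPr1AR with a p above 0. More than 1 pair of reads was possible in 3 SNORA and SCARNA regions of 22Rv1, 49 of LNCaP and 11 of HPr1AR, with ratios up to 0.19, 0.45 and 0.30 log2 units apart, and the pair nearest to the fold was taken. Where no pair was found, or the deposited p was 0, the smallest reads that reach the p-value give a bound. Depths come from the fitted constants and were not checked against sequenced reads.

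Reads were compared with a two-sided exact binomial test, adjusted by Benjamini-Hochberg over all regions of a line at 0.05. Pairs of regions were compared with a conditional exact test. Windows of 20 bp lie 10 bp apart, and the rank of the representative window gives its place. The place of 94 RNAs was taken from the deposited distances, from both sides for 81 and from 1 side and the RefSeq length for 13; a place for 7 was not found. Symbols of all 101 RNAs matched RefSeq. The rebuild and the region calls were run on simulated reads drawn from the same fitted model, with 1 window per region. That run cannot check the model itself or the rebuild in regions of several windows. The pair test was also run on simulated read counts. Python 3.11.15, numpy 2.4.6, scipy 1.17.1, pandas 2.3.3 and matplotlib 3.10.9 were used, and CPM is reads scaled to the rebuilt depth.

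The SNORA and SCARNA genes and all lists were chosen with earlier results of these data known. The RNAs named are every one called lower, the 10 with the smallest adjusted p among those higher in each line, those with 30 or more reads in their leading region in all 3 lines, any of a pair that differs, and a list of well-known guides (SNORA73A, SNORA73B and SCARNA13 of that list are not among the regions). Others were named after their values were seen. A result that this rule would name is not reported here. Only the tables' own regions enter, and 0 columns of values per sample were left unused. Alternatives were another threshold, centring, read and width minimums or limits, and subsets of regions; the split by window position was added after seeing the data.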

Additional observations from a re-analysis of the deposited data

Results flagged for a closer look

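The SNORA15 region of CCT6A differed between 22Rv1 and LNCaP by a test of the difference itself, with 17 m6A and 35 IgG reads in 22Rv1 and 51 and 38 in LNCaP and a difference of -2.10 on the log2 scale (conditional exact test, adjusted p = 0.0441 over all pairs). It was not past an adjusted p of 0.01. The LNCaP counts are 1 of 7 pairs of whole numbers that give the deposited fold, with ratios from 1.60 to 1.93. The part of the 2715 bp between the representative windows in the difference was not tested.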

How the results depend on the processing

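No paired analysis was possible because the tables hold no value per sample, and for the same reason no sample could be left out. At an adjusted p of 0.01, 9 regions of 22Rv1, 0 of LNCaP and 3 of HPr1AR were lower. Without counts that are not unique, LNCaP had 7 higher and 3 lower regions and a median of -0.56. Without exons of another gene, 1, 0 and 1 regions of 22Rv1, LNCaP and HPr1AR were higher, 3 of LNCaP lower, and the medians were -1.45, -0.76 and -0.88. With widths of at most 300 bp 0 were higher in each line, and the medians were -1.54, -0.90 and -1.02. With at least 10 reads, 8 regions of LNCaP were lower. By the adjusted p of the authors' deposited table, 88, 90 and 92 regions were under 0.05, with no direction read from it, and 0 counted as lower. With the window inside the RNA, an alternative chosen after seeing the data, 0, 0 and 1 were higher and the medians were -1.45, -0.73 and -0.76. Centred on the median of all regions, 2, 5 and 4 were higher, 66, 55 and 48 lower, and the medians were -2.48, -1.42 and -1.23.

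Of 65 calls of single regions, centring kept 46, lost 11 and turned the sign of 8. In 22Rv1 these were SCARNA17 (-0.0451), SNORA63 with SNORA4 (-0.53), SNORA5C (-0.33), SNORA30 (-0.49), SCARNA21 (-0.53) and SNORA50C (-0.99), and SNORA75 in LNCaP (-0.0562) and HPr1AR (-0.22). An adjusted p of 0.01 kept 42 of the 65, and at least 10 reads kept 65. Between lines, an overlap of 1 bp gave 2 pairs that differ for 22Rv1 and HPr1AR and 1 for LNCaP and HPr1AR, and at 0.01 there were 0 for 22Rv1 and LNCaP. Every SNORA and SCARNA exon mark also covers a promoter, so regions with an exon mark alone could not be tried. The reads of the representative window, a median over all regions of 13 in 22Rv1, 10 in LNCaP and 11 in HPr1AR, limit every ratio.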
